A study of Rattus norvegicus with 3 samples.

Results

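Aminoacyl-tRNA synthetases are the enzymes that join each amino acid to its transfer RNA (tRNA), the step that supplies ribosomes with charged tRNA. The genes described here were 35 listed rat synthetase genes, chosen by symbol from the annotation of the array, where older names lack the final digit. Of the 15924 genes that the array named, 32 were members, read by 43 probes. They were 18 of 19 listed cytosolic genes and 14 of 16 listed mitochondrial genes, the latter with symbols ending in 2. Gars1, Hars2 and Mars2 were not analysed here.

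The cells were cultures of NR8383, an established line of rat alveolar macrophages, the phagocytes of the lung surface. The groups were cells kept for 24 h with single-wall carbon nanotubes called CNT-1, cells kept as long with single-wall nanotubes called CNT-2, and control cells. Both kinds of nanotube were described as free of impurities and were given at 0.1 mg/mL in a solution with 1 mg/mL bovine serum albumin. The labels name the control as untreated in one field and as an albumin solvent control in another, so whether albumin was shared by all groups is not settled. The labels do not say what sets CNT-1 and CNT-2 apart.

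RNA was measured on 1-colour (Cy3) Agilent arrays, and the deposited table held 1 column per group. The labels mention an n of 4 without saying whether a column is a single array or a mean. No group had a second column, so there is no replicate check, no test was made, and "higher" and "lower" describe these columns only. Values are differences on a presumed log2 scale from a per-probe baseline that is not stated, with larger values read as more RNA. They hold no expression level, so levels of different genes cannot be compared, and whether the markers of the labelled cell type were present could not be checked. Over 11 markers of alveolar macrophages the median difference from control was 0.064 in CNT-1 and 0.073 in CNT-2, with a range from -2.24 to 3.96 in CNT-2. Over 23 markers of other cell types the median was -0.18 in CNT-1, with a range from -1.20 to 1.61, and -0.12 in CNT-2, with a range from -1.73 to 2.56. Of the 23 markers of other cell types 2 were at least 1 log2 unit higher in CNT-2, against 10.1% of all genes. At least as much lower were 3, against 6.56% of all genes. Of the 11 alveolar macrophage markers 2 were higher and 2 lower by as much. The part of either marker list in the results was not tested. In a culture, fewer cells with a transcript and less of it per cell cannot be told apart. A gene's value is the mean over its probes. The probe SD is given where there were 2 or more probes, and 22 members had 1 probe. The spread between probes is technical and says nothing of the spread between cultures. The number of arrays limits the precision.

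Cytosolic synthetases charge the tRNAs used by cytosolic ribosomes. Mitochondrial synthetases are also encoded in the nucleus and are imported to charge the tRNAs made from mitochondrial DNA. Most amino acids have a separate gene for each compartment, whereas Gars1 and Kars1 serve both, and Eprs1 is a fused enzyme for glutamate and proline. Several cytosolic enzymes are held together in the multisynthetase complex. In the integrated stress response, the transcription factor ATF4 is known to raise many cytosolic synthetase genes together with genes of amino acid synthesis and uptake.

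The first question was how synthetase genes in CNT-2 cells differed from control cells. The cytosolic and mitochondrial genes lay on opposite sides of 0. Of 18 cytosolic genes 17 were above the control, with a median difference of 0.54 log2 units, and of 14 mitochondrial genes 13 were below it, with a median of -0.50. Over all genes 53.5% were above the control and 46.4% below, with a median of 0.041. At least 1 log2 unit (2-fold) higher were 4 of 18 cytosolic genes, against 10.1% of all genes, and at least as much lower was 1 of 14 mitochondrial genes, against 6.56%. Quantile normalization ended these calls, with 0 of 18 and 0 of 14 genes, against 4.59% of all genes higher and 4.16% lower. It forces the columns to the same spread, in which they differed as given. The 75th percentile of gene probes was 0.075 in control, 0.13 in CNT-1 and 0.51 in CNT-2. The part of that difference in the lost calls was not tested. With each column centred on its 75th percentile the counts were 2 of 18 and 6 of 14, against 5.26% and 14.4%. At the smaller threshold of 0.5 log2 units, 9 of 18 cytosolic genes were higher, against 23.4% of all genes, and 7 of 14 mitochondrial genes were lower, against 16.1%. No cytosolic gene was 0.5 lower and no mitochondrial gene was 0.5 higher.

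**Figure D1:**
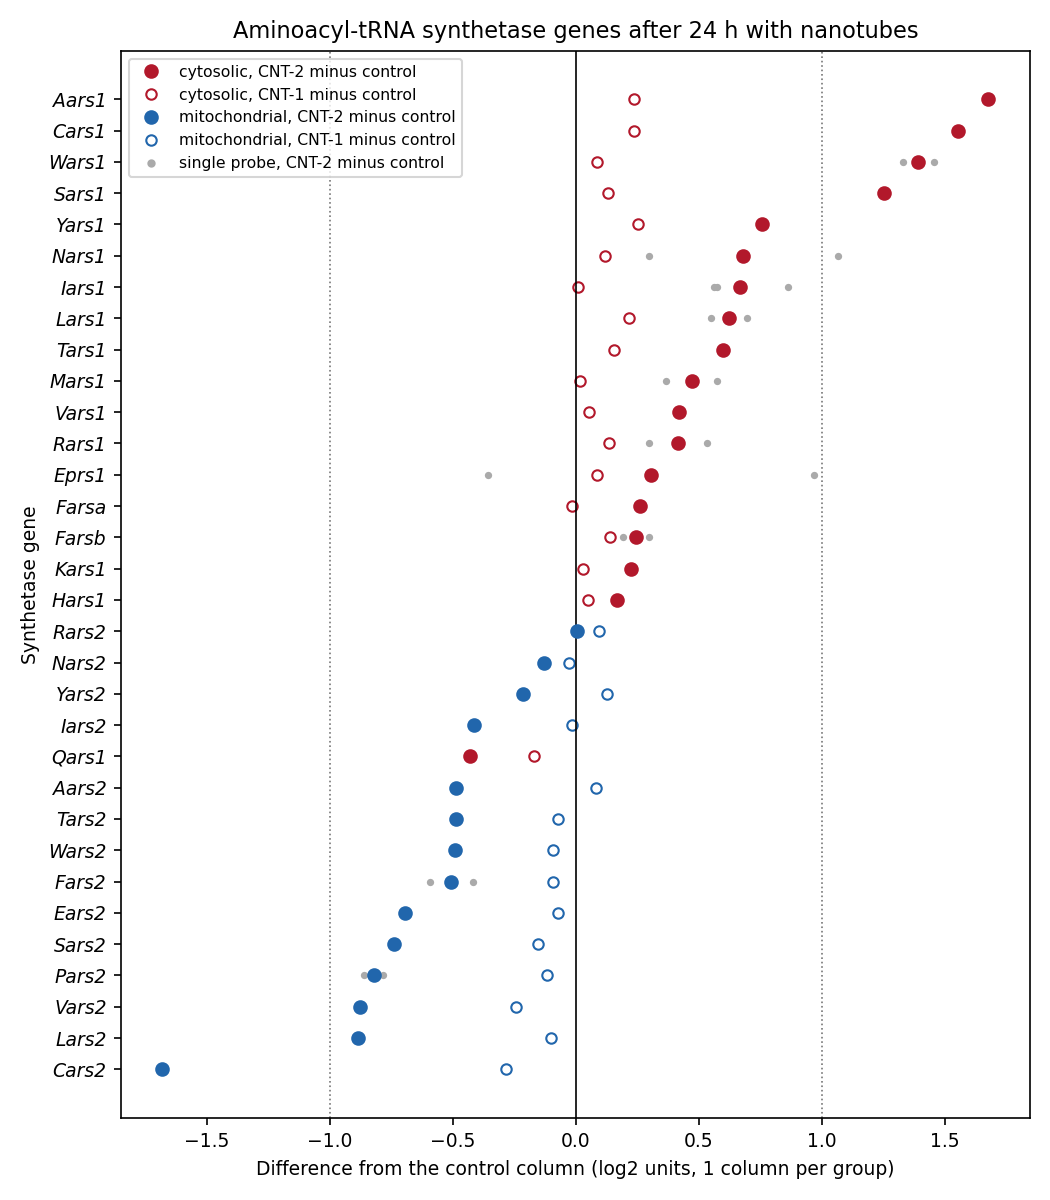
Difference from the control column (log2 units) for each of 32 synthetase genes. Filled circles are CNT-2 and open circles CNT-1, red for cytosolic and blue for mitochondrial genes; grey dots are single probes in CNT-2, and dotted lines mark 1 log2 unit. All cytosolic genes other than Qars1 lie above every mitochondrial gene in CNT-2.

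Alanine, cysteine, tryptophan and serine enzymes were the cytosolic genes past 1 log2 unit. Aars1, the alanine enzyme, was at 0.01 in the control column, 0.25 in CNT-1 and 1.69 in CNT-2, a difference of 1.68 between CNT-2 and control, or 3.20-fold if the scale is log2. Cars1, the cysteine enzyme, was at 0.015, 0.25 and 1.57 in the same order, a difference of 1.56 or 2.94-fold. For each of them the CNT-2 column stood well above the others. CNT-1 lay above control by 0.237 for Aars1 and 0.235 for Cars1, the 86.7th and 86.6th percentiles of all genes in that comparison. Wars1, the tryptophan enzyme, also known as an interferon-inducible protein with roles outside translation, was at -0.008 in control, 0.08 in CNT-1 and 1.38 in CNT-2. Its difference was 1.39 ± 0.09 (probe SD, 2 probes), so its probes gave nearly the same value. Sars1, the serine enzyme, was at 0.047, 0.18 and 1.30, a difference of 1.25. These 4 genes lay between the 93.2nd percentile (Sars1) and the 96.1st percentile (Aars1) of all genes, a high but not extreme position in a column where many genes were higher.

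Next came cytosolic genes between 0.5 and 1 log2 unit above control in CNT-2. The tyrosine enzyme Yars1 was at 0.76 and the threonine enzyme Tars1 at 0.60. The asparagine enzyme Nars1 was at 0.68 ± 0.54 (probe SD, 2 probes), the isoleucine enzyme Iars1 at 0.67 ± 0.17 (3 probes) and the leucine enzyme Lars1 at 0.62 ± 0.10 (2 probes). The probes of Nars1 disagreed in size, at 0.30 and 1.06, so its place in this order is loose. The probes of Iars1 were at 0.56, 0.57 and 0.86.

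Smaller differences were found for the methionine enzyme Mars1 at 0.47 ± 0.15, the arginine enzyme Rars1 at 0.42 ± 0.17 (probe SD, 2 probes each) and the valine enzyme Vars1 at 0.42. Phenylalanine is charged by an enzyme with an alpha subunit, Farsa, at 0.26 and a beta subunit, Farsb, at 0.25 ± 0.07, so its subunits differed by less than the probe spread of Farsb. The lysine enzyme Kars1, which serves both compartments, was at 0.23 and the histidine enzyme Hars1 at 0.17. The fused glutamate and proline enzyme Eprs1 was at 0.31 ± 0.94 (probe SD, 2 probes), where a probe was at 0.97 and the other at -0.36, so its place above control in the counts rests on the mean of probes of opposite sign.

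The glutamine enzyme Qars1 was the cytosolic gene below control. It was at -0.01 in control, -0.18 in CNT-1 and -0.44 in CNT-2, a difference of -0.43 in CNT-2, between the mitochondrial genes Iars2 and Aars2. Qars1 had 1 probe.

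Among mitochondrial genes the cysteine enzyme Cars2 was lowest. Cars2 was at 0.006 in control, -0.28 in CNT-1 and -1.67 in CNT-2, a difference of -1.68, which leaves 0.312 of the control level. It lay at the 1.85th percentile of all genes, read by a single probe. The leucine enzyme Lars2 at -0.88, the valine enzyme Vars2 at -0.88, the proline enzyme Pars2 at -0.82 ± 0.06 (probe SD, 2 probes), the serine enzyme Sars2 at -0.74 and the glutamate enzyme Ears2 at -0.69 followed. Pars2 was at -0.018 in control, -0.13 in CNT-1 and -0.84 in CNT-2, and its probes agreed closely.

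The phenylalanine enzyme Fars2 was at -0.51 ± 0.12 (probe SD, 2 probes), the tryptophan enzyme Wars2 at -0.49, the threonine enzyme Tars2 at -0.49, the alanine enzyme Aars2 at -0.48 and the isoleucine enzyme Iars2 at -0.41. These 5 genes lay within 0.1 log2 units of each other, less than the median probe SD of 0.19 over all genes with several probes, so their order is not informative. The tyrosine enzyme Yars2 was at -0.22, the asparagine enzyme Nars2 at -0.13 and the arginine enzyme Rars2 at 0.006, the last the only mitochondrial member not below control. Of the 14 mitochondrial genes 12 had 1 probe, against 10 of 18 cytosolic genes.

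Control probes also differed in the CNT-2 column. In CNT-2 the 10 spike-in probes, which report RNA added before labelling, were 0.23 ± 0.10 (SD over probes) above the control column. Of the array control probes named DCP, the 11 numbered 0 to 5 were at 0.22 ± 0.08, and the 7 with numbers from 6 upward were at -0.18 ± 0.26. Their part in the synthetase values was not tested. Any shift of a whole column changes both compartments equally, so it moves the count above 0 and leaves the gap between compartments as it is. Centred on the spike-in probes, 16 of 18 cytosolic genes were above control, against 37.5% of all genes, and 14 of 14 mitochondrial genes below it, against 62.5%. Centred on the 75th percentile of each column, which moved the median of all genes to -0.40, 10 of 18 cytosolic genes were above control, against 26.4% of all genes, and 14 of 14 mitochondrial genes below it, against 73.6%. Farsa, Farsb, Hars1, Kars1, Rars1, Vars1 and the probe mean of Eprs1 were then below 0 with Qars1.

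The comparison between compartments for the same amino acid does not change with such centring. There were 15 pairs of a cytosolic and a mitochondrial gene over 14 amino acids, in which Eprs1 stands in 2 pairs (glutamate and proline) and Fars2 in 2 (the subunits of the cytosolic phenylalanine enzyme), so the pairs are not independent. In CNT-2 minus control the cytosolic gene was higher than its mitochondrial partner in 15 of 15 pairs, by a median of 1.09 log2 units and between 0.41 and 3.23. The difference of the compartment medians was 1.03. Even the lower Eprs1 probe, at -0.36, was above Ears2 and Pars2. Cysteine had the widest gap, with Cars1 above Cars2 by 3.23, followed by alanine at 2.16, serine at 1.99 and tryptophan at 1.88. Arginine had the smallest gap at 0.41, where Rars2 was near control and Rars1 was at 0.42, and phenylalanine followed at 0.75 for Farsb and 0.77 for Farsa. Quantile normalization, which forces the columns to the same spread of values, reduced the difference of the medians from 1.03 to 0.59.

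**Figure D2:**
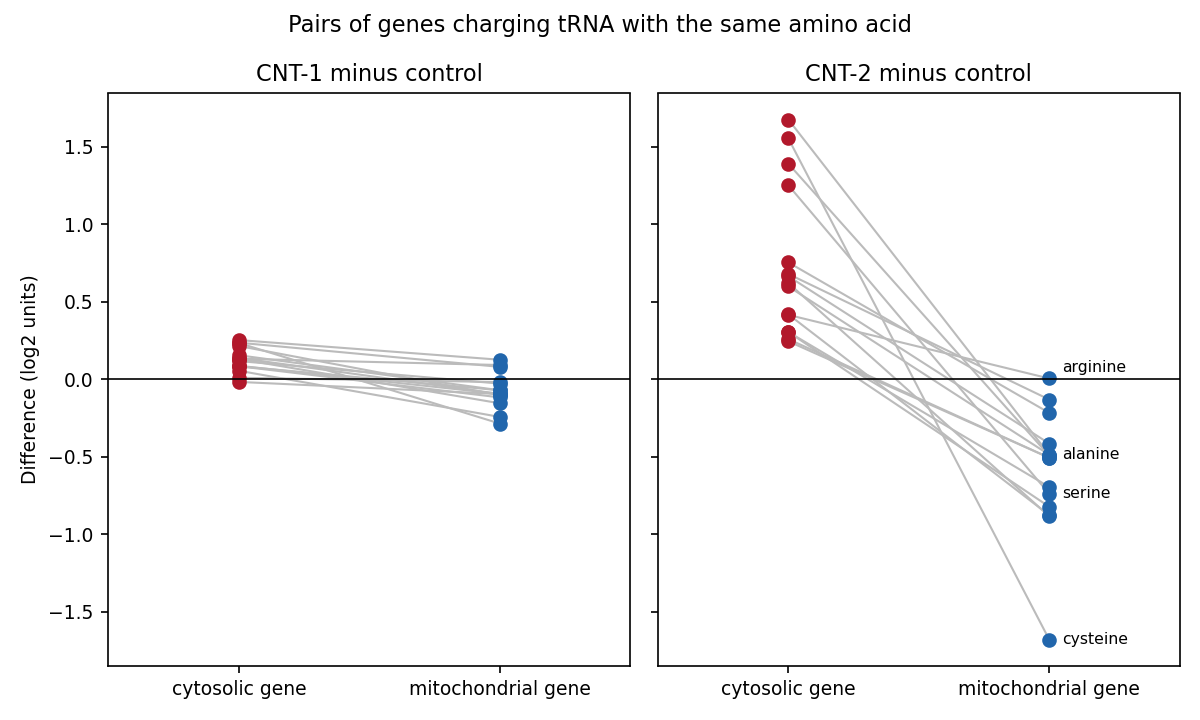
Differences (log2 units) of the cytosolic (red) and mitochondrial (blue) gene that charge tRNA with the same amino acid, joined by a line, for CNT-1 minus control (left) and CNT-2 minus control (right). Every line falls from left to right, by a median of 0.18 in CNT-1 and 1.09 in CNT-2; Qars1, Kars1, Hars1 and Mars1 have no measured partner and are not drawn.

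The next question was whether CNT-1 cells differed from control cells in the same genes. The values were small: no member of either compartment reached 0.5 log2 units, a size at which 4.96% of all genes were higher and 8.18% lower. At 1 log2 unit, which no member reached either, 1.16% of all genes were higher and 2.15% lower. Of 18 cytosolic genes 16 were above control, against 42.1% of all genes, with a median of 0.10, and of 14 mitochondrial genes 11 were below it, against 57.7% of all genes, with a median of -0.08. The median over all genes was -0.043. The difference of the compartment medians was 0.18. The cytosolic gene was above its partner in 15 of 15 pairs, by between 0.028 (isoleucine) and 0.52 (cysteine). The gaps for isoleucine, arginine (0.0405) and Farsa (0.078) were below or close to 0.076, the median probe SD of all genes in this comparison. Because CNT-1 and CNT-2 were set against the same control column, these counts and those in CNT-2 are not independent.

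The cytosolic genes furthest above control in CNT-1 were Yars1 at 0.25, Aars1 at 0.24, Cars1 at 0.23 and Lars1 at 0.22, the last with a probe SD of 0.26 over 2 probes. Tars1 was at 0.16, Farsb at 0.14 ± 0.02, Rars1 at 0.13 ± 0.04, Sars1 at 0.13 and Nars1 at 0.12 ± 0.06 (probe SD, 2 probes each). Wars1, past 1 log2 unit in CNT-2, was at only 0.09 ± 0.01 in CNT-1. The remaining cytosolic genes lay between 0.011 for Iars1 and 0.085 for Eprs1, apart from Farsa at -0.016 and Qars1 at -0.17. Values under 0.08, the median probe SD of all genes in this comparison, are within the technical spread.

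The lowest mitochondrial genes in CNT-1 were Cars2 at -0.28, Vars2 at -0.24 and Sars2 at -0.15. Pars2 was at -0.12 ± 0.03, Lars2 at -0.10, Fars2 at -0.09 ± 0.03 (probe SD, 2 probes each) and Wars2 at -0.09. Ears2 and Tars2 were both at -0.07, Nars2 at -0.027 and Iars2 at -0.017. Yars2 at 0.13, Rars2 at 0.09 and Aars2 at 0.08 were above control. The sign of this compartment in CNT-1 was not settled. Centring on the spike-in probes left 9 of 14 genes below 0, against 49.7% of all genes. Quantile normalization left 7 of 14, against 47.3%, and a median of 0.006. In the control column 40 of 43 member probes lay within 0.06 of 0, a narrow spread that quantile normalization widens.

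Set directly against each other, CNT-2 was above CNT-1 for 17 of 18 cytosolic genes, against 63.3% of all genes, with a median of 0.43. It was below CNT-1 for 14 of 14 mitochondrial genes, against 36.7% of all genes, with a median of -0.49. At least 1 log2 unit higher were 4 of 18 cytosolic genes, against 9.32% of all genes, and the only mitochondrial gene 1 log2 unit lower was Cars2 at -1.39, against 4.65%. Aars1 was at 1.44, Cars1 at 1.32, Wars1 at 1.30 ± 0.10 (probe SD, 2 probes) and Sars1 at 1.12. Qars1 was again the cytosolic exception, at -0.26. The cytosolic gene was above its partner in 15 of 15 pairs by a median of 0.93. With quantile normalization the cytosolic median was 0.042, with 11 of 18 genes above 0, against 49.8% of all genes, while 14 of 14 mitochondrial genes were below 0, against 50.2%. Both exposures were at the same dose and time, and with 1 column each no interval of these differences can be given.

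Within the cytosolic genes, those of the multisynthetase complex had a lower median than the others in CNT-2, but the ranges overlapped. The 7 members in the complex (Eprs1, Iars1, Kars1, Lars1, Mars1, Qars1 and Rars1) had a median of 0.42 in CNT-2 minus control, ranging from -0.43 to 0.67. None of them was at least 1 log2 unit higher, against 10.1% of all genes, which for 7 genes is near that share. The 11 measured cytosolic enzymes outside the complex had a median of 0.68, ranging from 0.17 to 1.68, with 4 past that threshold. That median is the value of Nars1, whose probes were at 0.30 and 1.06. In the complex, Eprs1 had probes of opposite sign. The scaffold proteins that hold the complex together were at 0.45 ± 0.08 for Aimp1 (probe SD, 2 probes), 0.78 for Aimp2 and 0.74 for Eef1e1, of which Aimp1 was within its probe spread of the median of the complex's enzymes. The structural class of the enzyme, class I or class II after the fold of its catalytic domain, separated the genes little: cytosolic class I genes had a median of 0.55 and class II genes 0.43, and mitochondrial class I genes had -0.59 and class II genes -0.50. These are descriptions of small lists, and no test of the differences was made.

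Promoters were examined because cytosolic genes were higher together. The C/EBP-ATF response element, to which ATF4 binds with a C/EBP partner, has the core letters TGATGNAA. RefSeq promoter entries (build GRCr8), each 250 bases before to 50 bases after an annotated start, were used for 30 of 32 measured members, all but Aars1 and Rars1. On either strand TGATGNAA was present in 6 of 16 cytosolic promoters (37.5%) and in 0 of 14 mitochondrial promoters, against 3.98% of all 33468 promoter entries. In each of the 6 genes the match had the form TGATGCAA, which 0.792% of all entries hold; this narrower form was examined after the matches had been seen. The windows are shown because they share these letters in the cytosolic genes only, with the match in capitals. Where the element lies on the other strand it reads TTGCATCA.
Cars1: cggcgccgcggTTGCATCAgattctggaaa
Iars1: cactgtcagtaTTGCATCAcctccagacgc
Mars1: gcccgttccggTTGCATCAgcgtgggctcc
Tars1: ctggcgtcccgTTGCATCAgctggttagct
Nars1: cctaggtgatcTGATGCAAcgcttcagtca
Yars1: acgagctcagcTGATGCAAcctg

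The windows lie at chr1:208225334-208225363 on the minus strand for Cars1 and chr17:15193658-15193687 on the minus strand for Iars1. Those of Mars1, Tars1 and Nars1 are at chr7:65023752-65023781, chr2:62114811-62114840 and chr18:60275778-60275807, all on the minus strand, and that of Yars1 is at chr5:146820190-146820212 on the plus strand, where the entry ends. The matches in Iars1, Mars1, Nars1 and Tars1 began between positions -27 and -14, counted from the annotated start, and those in Cars1 and Yars1 began at positions 18 and 39. Each of these genes had an entry for a single start, so other promoters of them were not searched. Among the genes without a match, the start used lay furthest inside the outermost annotated start in Cars2, Eprs1 and Rars2. The distances were 2490, 1298 and 1065 bases, and 267 bases in Fars2, so the outermost start of these genes was not searched.

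For the 6 cytosolic genes with the core the median difference between CNT-2 and control was 0.67, ranging from 0.47 (Mars1) to 1.56 (Cars1). The 10 with a promoter entry and no match had a median of 0.28, ranging from -0.43 (Qars1) to 1.39 (Wars1). The first median lies between Iars1 and Nars1, and the probes of Nars1 were at 0.30 and 1.06. The second lies between Farsa and Eprs1. The probes of Eprs1 had opposite signs, and its outermost start was not searched. The ranges overlapped: Wars1 and Sars1 had no match in these windows and were among the 4 highest genes. In CNT-1 minus control the medians were 0.14 and 0.07. Of the comparison list of ATF4 targets outside the synthetases, 5 of 22 promoters held the core (22.7%). Of mitochondrial Aars2 and cytosolic Nars1 the start used is the outermost annotated one, so the 250 bases before it are shown as examples without and with the core, at chr9:22993537-22993786 and chr18:60275783-60276032, both on the minus strand.
Aars2: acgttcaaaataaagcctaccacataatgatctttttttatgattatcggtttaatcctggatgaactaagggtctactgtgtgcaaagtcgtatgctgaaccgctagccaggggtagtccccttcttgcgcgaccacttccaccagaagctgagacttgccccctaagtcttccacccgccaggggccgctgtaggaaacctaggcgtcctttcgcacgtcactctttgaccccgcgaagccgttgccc
Nars1: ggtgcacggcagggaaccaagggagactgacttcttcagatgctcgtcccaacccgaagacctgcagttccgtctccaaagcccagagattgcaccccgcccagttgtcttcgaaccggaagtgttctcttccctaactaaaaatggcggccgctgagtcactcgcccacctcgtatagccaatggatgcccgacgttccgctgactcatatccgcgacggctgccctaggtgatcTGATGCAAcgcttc

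**Figure D3:**
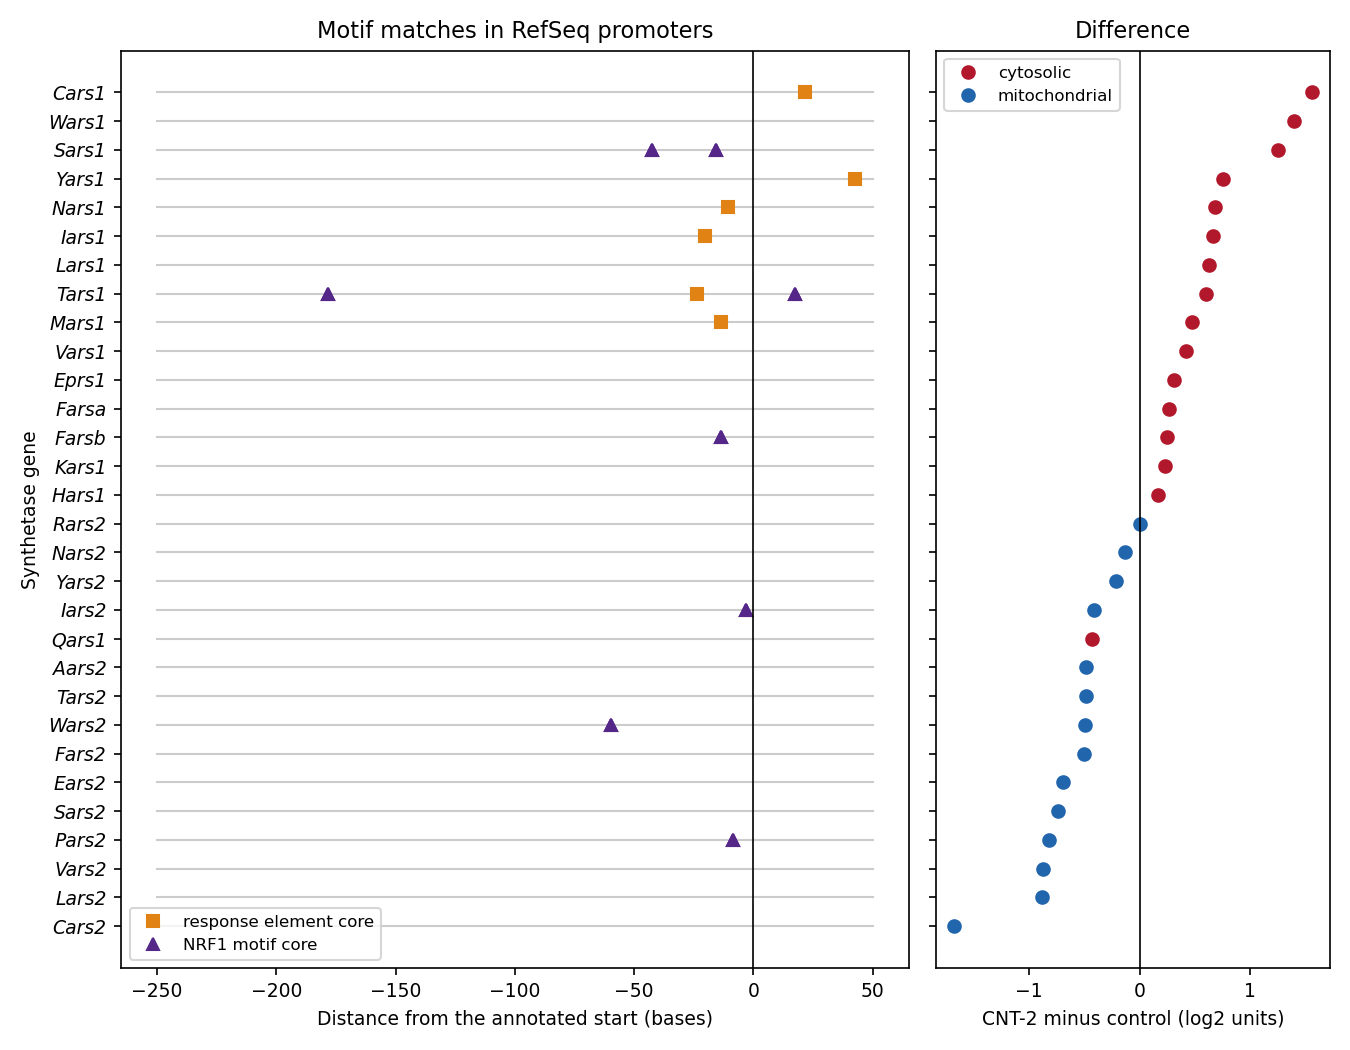
Left, positions of matches to the response element core (orange squares) and the NRF1 motif core (purple triangles) from 250 bases before to 50 bases after the annotated start in 30 synthetase promoters; right, the difference CNT-2 minus control (log2 units), red for cytosolic and blue for mitochondrial genes. Genes are ordered by that difference; the orange matches fall in 6 cytosolic genes and in no mitochondrial gene.

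The motif of NRF1, a transcription factor known for nuclear genes of mitochondrial proteins, did not separate the compartments. Its core (GCGC, then any 2 bases, then GCGC), which reads the same on both strands, was present in 3 of 14 mitochondrial promoters (21.4%; Iars2, Pars2 and Wars2) and in 3 of 16 cytosolic promoters (18.8%; Farsb, Sars1 and Tars1), against 5.58% of all entries. Tars1 held both motifs without overlap. The windows of Pars2, at chr5:126662896-126662925, and Wars2, at chr2:189150287-189150316, both on the plus strand, are shown as examples of the mitochondrial matches, with the match in capitals.
Pars2: ggccaaaccgGCGCAGGCGCattggcttcg
Wars2: cagaagacaaGCGCATGCGCagtaagcaca

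Genes that work beside the synthetases were read from lists; those named below with a difference under 1 log2 unit were picked after their values were seen. ATF4 targets outside the synthetases, a list that includes Atf4, were higher in CNT-2 than the cytosolic synthetases, with a median of 1.17. The list was chosen with earlier results of these data known. Of 24 genes 15 were at least 1 log2 unit above control, against 10.1% of all genes, and 23 were above 0, against 53.5%. The highest were the glutathione-degrading enzyme Chac1 at 4.51, the stress-induced chromatin protein Nupr1 at 4.33, the pseudokinase Trib3 at 3.94, the transcription factors Atf3 at 3.78 and Ddit3 at 2.73, and the cysteine-producing enzyme Cth at 2.39. Atf4 itself, named after its value was seen, was at 1.70. In CNT-1 the list had a median of 0.13. None of 24 was at least 1 log2 unit higher, against 1.16% of all genes, and 6 of 24 were at least 0.5 higher, against 4.96%.

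**Figure D4:**
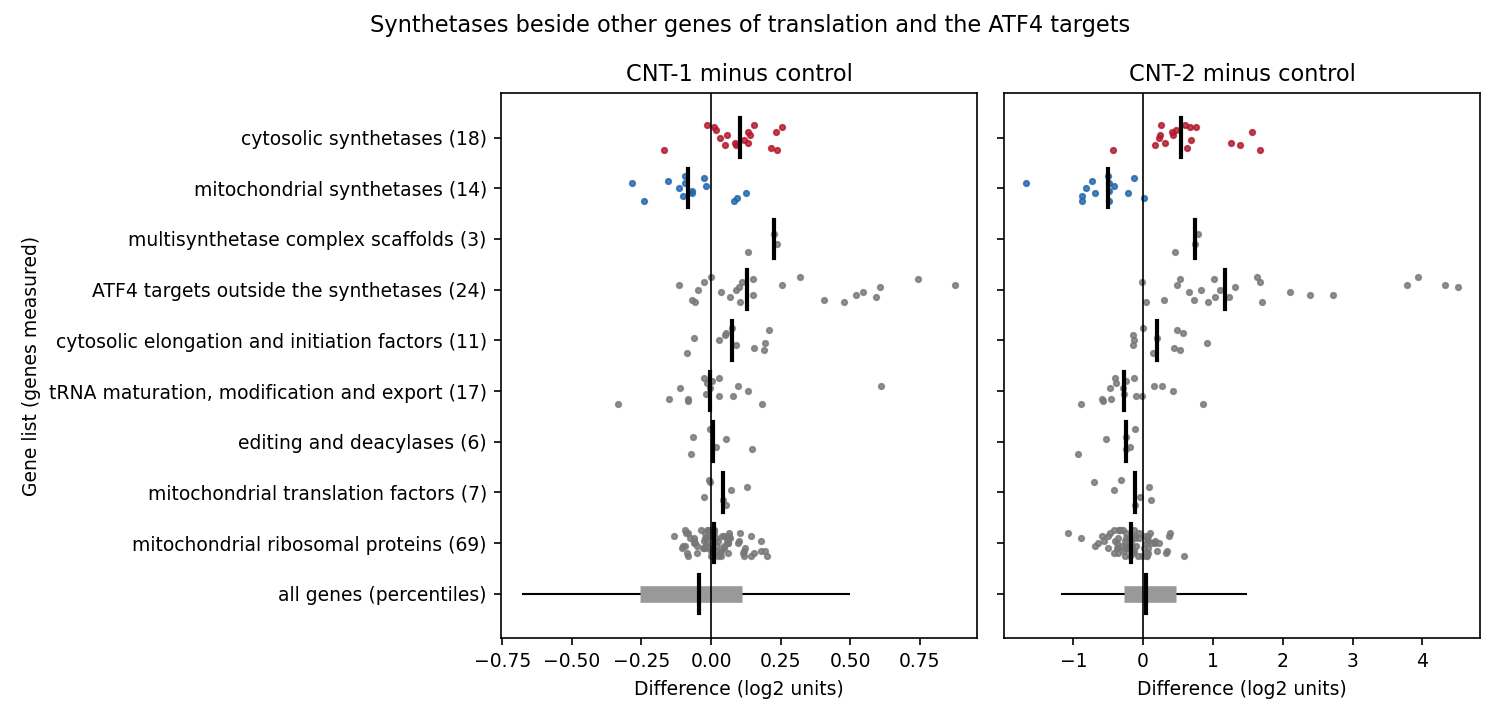
Differences (log2 units) in CNT-1 (left) and CNT-2 (right) for the synthetases and for lists of related genes; each dot is a gene, black bars are list medians, and for all genes the grey box spans the 25th to 75th percentile and the line the 5th to 95th. The horizontal scales of the panels differ. Cytosolic synthetases have a median of 0.54 and mitochondrial synthetases of -0.50 in CNT-2, with the ATF4 targets at 1.17 and mitochondrial ribosomal proteins at -0.17.

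Other genes of mitochondrial translation were mostly below control in CNT-2, some of them as low as the synthetases. Mitochondrial ribosomal proteins (69 measured) had a median difference of -0.17 between CNT-2 and control, with 47 below 0, against 46.4% of all genes. Of the 69 only 1 was at least 1 log2 unit lower, Mrpl16 at -1.07, against 6.56% of all genes. Of 7 measured mitochondrial translation factors 5 were below 0, against 46.4% of all genes, with a median of -0.11. Mtfmt, which puts the formyl group on the initiator methionyl-tRNA, was lowest at -0.71, and the elongation factor Tufm was at -0.11. Mitochondria make glutaminyl-tRNA by amidation of a glutamate intermediate rather than with an enzyme such as Qars1, and the amidation subunits Qrsl1 at -0.51 ± 0.07 (probe SD, 2 probes) and Gatb at -0.18 were below control, as was Ears2, which makes that intermediate. In CNT-1 the ribosomal protein and factor lists had medians of 0.012 and 0.043.

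Other steps of tRNA handling were mostly lower in CNT-2. Of 17 measured genes of tRNA maturation, modification and export 13 were below 0, against 46.4% of all genes, with a median of -0.27. None was past 1 log2 unit, against 10.1% of all genes higher and 6.56% lower. Xpot, the exporter of tRNA from the nucleus, stood out at 0.85, and the mitochondrial RNase P subunit Prorp was lowest at -0.89. A list of editing enzymes, deacylases and peptidyl-tRNA hydrolases, which also held the mitochondrial endoribonuclease Lactb2, had 6 of 6 measured genes below control, against 46.4% of all genes, with a median of -0.25 and Dtd1, a D-aminoacyl-tRNA deacylase, at -0.93. Pstk, the kinase on the route to selenocysteinyl-tRNA, was at -1.38 ± 0.50 (probe SD, 2 probes). Among cytosolic elongation and initiation factors, the initiation factor Eif5 was highest at 0.91 ± 0.33 (probe SD, 2 probes). That list lay between, with 8 of 11 above 0, against 53.5% of all genes, and a median of 0.19. That median is smaller than the shift from 0.041 to -0.40 that centring on the 75th percentile gave all genes, so its sign depends on the scaling.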

How the data were processed

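The authors deposited 1 value per probe and group, 41103 probes in 3 columns, taken here as log2 differences because the values had both signs and column medians near 0. Natural logs would look alike. Per the submitters' processing notes, the tool was Agilent Feature Extraction, version 10.7.3.1. Normalization, baseline and any pooling of arrays: not given in the sources used here. Of all probes 20932 had 1 gene symbol in the platform annotation, 0 had several and 20171 had none. RefSeq accessions (assembly GRCr8) named 17415 probes, 3113 kept a current symbol, 398 older symbols were updated and 6 stayed unmatched, giving 15924 genes. Differences were taken per probe and averaged per gene with Python 3.11.15 and pandas 2.3.3, without a filter. Thresholds were 1 and 0.5 log2 units. The promoter of Aars1 is not reported here and was left out of the motif counts. The averaging step was tested on simulated data. All members were named; of other lists, those at least 1 log2 unit from control in CNT-2, at most 6, and otherwise the extremes. Members, lists and motifs were chosen with earlier results of these data known. Alternatives were other column scalings, probe choices, thresholds and the mean of members.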

Additional observations from a re-analysis of the deposited data

How the results depend on the processing

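Of the alternatives to the medians, counts and gaps given above, 201 stayed within the technical spread or within 1.5 times a count, 36 moved further and 1 turned the sign. Some of the 201 could not change, because centring a column leaves the gap between compartments as it is. That number is therefore not a measure of stability. The turn was the mitochondrial median in CNT-1 minus control, at 0.0058 with quantile normalization, which put the cytosolic median at 0.22. In CNT-2 minus control the cytosolic median was 0.098 with 75th percentile, 0.29 with quantile and 0.31 with spike-in scaling, and the mitochondrial median -0.94, -0.30 and -0.72. Against CNT-1, those scalings gave CNT-2 cytosolic medians of 0.042, 0.042 and 0.15 and mitochondrial medians of -0.87, -0.27 and -0.76. The gap between compartments was 0.59 (CNT-2 minus control) and 0.31 (CNT-2 minus CNT-1) with quantile normalization, and 1.23 as a difference of means in CNT-2 minus control. Cytosolic genes at least 1 log2 unit above control in CNT-2 numbered 2 with 75th percentile scaling, 0 with quantile normalization, 1 of 8 with genes of several probes only and 9 at 0.5 log2 units; against CNT-1 the counts were 1, 0, 1 and 7. Mitochondrial genes at least 1 log2 unit below control numbered 6 with 75th percentile, 0 with quantile and 4 with spike-in scaling, 0 of 2 with several probes only, 7 at 0.5 log2 units and 6 if the scale is the natural log; against CNT-1 the counts were 5, 0, 2, 0, 7 and 3. Of all genes 14.4%, 4.16% and 9.83% were as much below control with those 3 scalings, and 9.82%, 2.31% and 7.82% below CNT-1. At least 1 log2 unit higher in CNT-2 than control were 5.26% of all genes with 75th percentile scaling and 4.59% with quantile normalization. Against CNT-1 these shares were 4.82% and 2.52%. Among genes with several probes only, 8.75% were as much higher in CNT-2 than control and 6.47% than CNT-1. As much lower were 5.29% and 3.45% of them. At 0.5 log2 units, 23.4% of all genes were higher than control and 24.4% higher than CNT-1. At that threshold 16.1% and 12.7% were lower. The natural log counts stand without a share of all genes. For single members 205 alternatives moved a value beyond the technical spread and 657 did not. Small values could change sign. With 75th percentile scaling Hars1 in CNT-2 minus control went from 0.17 to -0.27 and Kars1 from 0.23 to -0.21. The genes past 1 log2 unit in that comparison (Aars1, Cars1, Wars1, Sars1 and Cars2) kept their sign. The use of RefSeq mRNA probes only, of the natural log and of TGATGCAA was chosen after seeing the data. The causes were not tested. No paired analysis was possible because each group had 1 column.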

Other observations

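The probes of Eprs1 disagreed in CNT-2. The probe annotated with a RefSeq mRNA was at 0.97 above control and the probe annotated with a clone accession was at -0.36, whereas in CNT-1 they were at 0.063 and 0.11. With RefSeq mRNA probes only, chosen after seeing the data, which drops this clone probe and a probe of Iars1, the cytosolic median in CNT-2 minus control was 0.58 in place of 0.54.

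Trit1, which adds an isopentenyl group to certain cytosolic and mitochondrial tRNAs, was the gene of the tRNA maturation list furthest above control in CNT-1, at 0.61, and was at 0.28 in CNT-2. It had 1 probe and was picked out after its values were seen.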
